A study of Homo sapiens with 10 samples.

Results

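The 9 genes described here encode enzymes that add acetyl groups to the tumour suppressor p53 or take them off, and they were chosen by symbol from the 25548 distinct symbols of the deposited gene tables. The acetyltransferases are EP300 (p300), CREBBP (CBP), KAT2A (GCN5), KAT2B (PCAF) and KAT5 (TIP60), and the deacetylases are SIRT1, HDAC1, HDAC2 and HDAC3. All 9 symbols were found once each, all had a clean quantification status in every library, and all 9 passed the filter on low values (an FPKM, Cufflinks' length-scaled level, that reached 1 in 2 or more libraries). RNA sequencing covered 10 libraries from U2OS, a line grown from a human osteosarcoma. The groups were a line labelled p53 KO given an siRNA against SET (n = 2), the same line given control siRNA (n = 2), a control CRISPR line labelled p53 WT given SET siRNA (n = 3) and that line given control siRNA (n = 3), each for 96 h. The lines came from CRISPR/Cas9 transfection, selection and clone identification, with 1 line of each kind, so that loss of p53 and any other difference between the lines cannot be told apart. The series design text names SET as the CRISPR target although it describes a p53 knockout, and groups were taken from the sample labels. Whether the biological replicates of the labels were grown apart is not stated, and p-values therefore cover the variation among these libraries, which may be technical.

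Acetylation of lysines near the carboxyl terminus of p53 by p300 and CBP, within its tetramer linker by PCAF, and of a lysine in its DNA-binding domain by TIP60 is known to favour its action as a transcription factor. SIRT1, a deacetylase that consumes NAD+, and the zinc-dependent enzymes HDAC1 to HDAC3 reverse these marks. SET, a histone chaperone, binds the unacetylated carboxyl terminus of p53 and restrains it, which is why the enzymes that set this mark are of interest in a study of p53 and SET. The data are mRNA levels only, and neither enzyme activity nor acetylation was measured.

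The siRNA target SET was examined first. SET mRNA was 14.9 and 14.9 FPKM in KO-labelled cells with SET siRNA, against 158.1 and 169.7 FPKM with control siRNA. Its level in WT-labelled cells was 12.3, 13.3 and 12.01 FPKM with SET siRNA, against 120.9, 125.2 and 125.7 FPKM with control siRNA. The p53 target CDKN1A was at 6.84 and 6.51 FPKM in KO-labelled cells with control siRNA, against 163.0, 169.8 and 153.1 FPKM in WT-labelled cells. With SET siRNA CDKN1A was higher in both lines, at 19.4 and 19.3 FPKM in KO-labelled cells (log2 change 1.41). In WT-labelled cells with SET siRNA it was at 741.2, 720.9 and 698.9 FPKM (log2 change 2.15). CDKN1A is used as a readout of p53 activity, but it also rose where p53 is labelled absent. It does not test the CRISPR edit itself. Depth was not stated. The authors' intervals imply libraries 1.00 to 1.52 times as deep as the shallowest. The control pair of the KO-labelled line differed most, with a chi-square per degree of freedom of 9.72 over implied fragments, against 2.23 to 3.91 for the other pairs within a group. Of 8 mesenchymal markers, 6 had an FPKM of at least 1 in every library, with VIM up to 1465 FPKM, and no blood or endothelial marker did. The mesenchymal markers that did not were COL1A2, at up to 0.647 FPKM, and TWIST1, at up to 0.0436 FPKM. Epithelial markers summed to 272.4 to 275.8 and 280.6 to 319.2 FPKM in KO-labelled cells with SET and control siRNA, and 490.4 to 501.9 and 655.2 to 688.5 FPKM in WT-labelled cells with SET and control siRNA, with KRT8 and KRT18 the highest. The mesenchymal markers summed to 1655 to 1818 and 2150 to 2290 FPKM in KO-labelled cells and to 1441 to 1593 and 2124 to 2200 FPKM in WT-labelled cells with SET and control siRNA. Of 7 epithelial markers, 4 had an FPKM of at least 1 throughout WT-labelled cells with SET siRNA, and 3 in each other group. EPCAM did not follow the sum. It was at 3.35 to 4.75 FPKM in the libraries with SET siRNA and 1.58 to 1.90 FPKM in the control libraries. CDH1 and ESRP1, at up to 1.68 and 0.70 FPKM, were also higher with SET siRNA in both lines. The part of these shifts in the results below was not tested.

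The 9 genes spanned a wide range of levels. HDAC1, HDAC3, CREBBP, SIRT1 and KAT2B kept their places in the order in all 4 groups, while EP300, HDAC2, KAT2A and KAT5 changed places. FPKM is scaled per length, so levels can be set beside each other between genes. HDAC1 had the highest level of the 9 in every group, with a group mean of 78.3 to 91.5 FPKM, and HDAC3 came next with 39.9 to 42.3 FPKM. KAT2B had the lowest level in every group, with means of 2.05 to 4.42 FPKM, and SIRT1 stood just above it at 12.1 to 18.8 FPKM. EP300, HDAC2, KAT2A, KAT5 and CREBBP lay between, at 18.0 to 31.5 FPKM. HDAC2 was above KAT2A without overlap in KO-labelled cells and below it without overlap in WT-labelled cells, under both siRNAs. Neighbours in the order whose libraries overlapped were KAT5 and EP300 in KO-labelled cells with SET siRNA, and EP300 and HDAC2, KAT5 and KAT2A, and CREBBP and SIRT1 in KO-labelled cells with control siRNA. In WT-labelled cells EP300, KAT5 and HDAC2 overlapped, each with the next, with SET siRNA, and KAT2A, KAT5 and EP300 with control siRNA. The highest value of a gene over the 10 libraries was 1.17 times its lowest for HDAC3, 1.69 times for SIRT1 and 2.40 times for KAT2B. The half-width of the authors' FPKM interval was 10.7 to 16.2% of the value for KAT2B and 2.85 to 7.88% for the other genes.

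**Figure D1:**
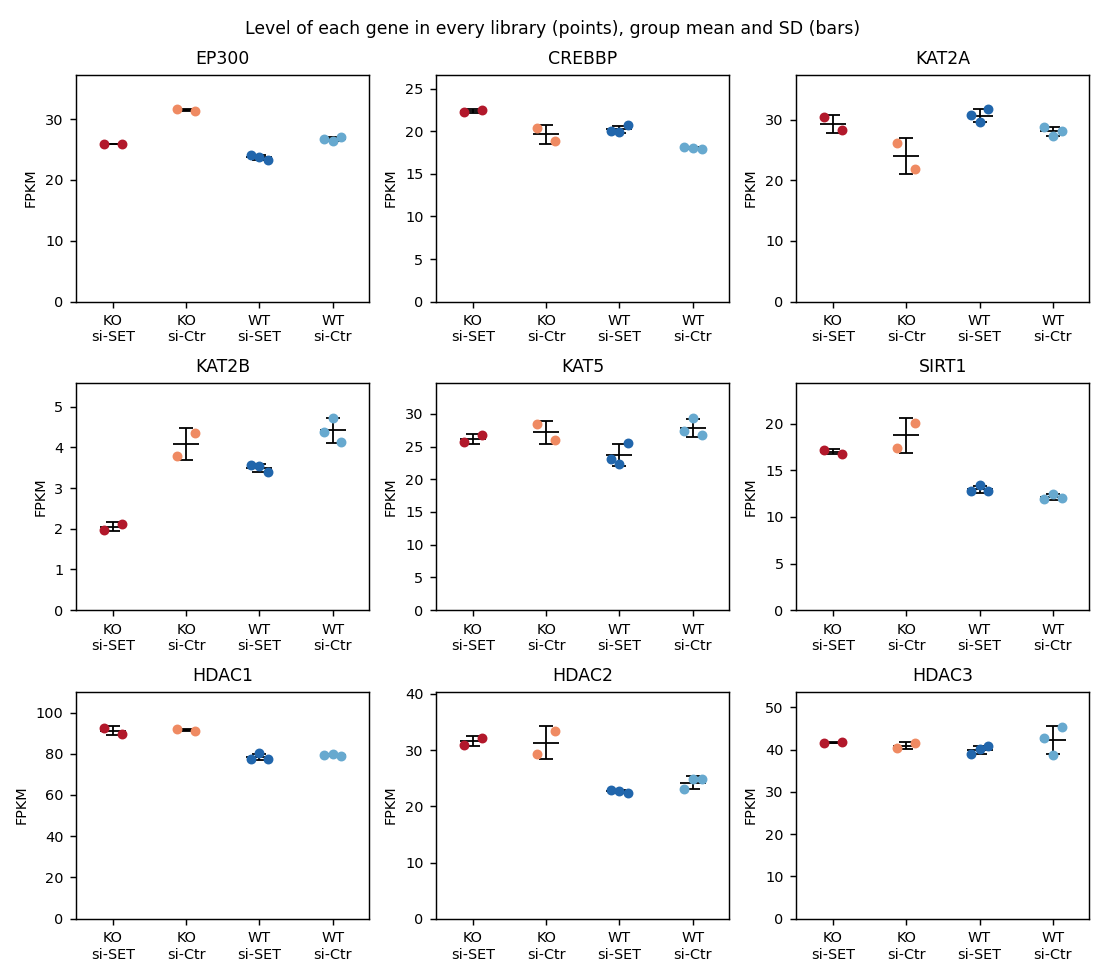
FPKM of the 9 genes in each of the 10 libraries (points), with the group mean and SD (bars; n = 2 for KO-labelled and n = 3 for WT-labelled groups), each panel starting at 0. KAT2B is lowest in KO-labelled cells with SET siRNA, at 1.97 and 2.12 FPKM, and SIRT1, HDAC1 and HDAC2 are higher in all 4 KO-labelled libraries than in any WT-labelled library.

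SET siRNA was compared with control siRNA in each line to see which of these genes respond to loss of SET. In KO-labelled cells KAT2B and EP300 fell and KAT2A and CREBBP rose, while in WT-labelled cells KAT2B, EP300 and KAT5 fell and CREBBP rose. The 4 deacetylase genes were called in neither line. Genes were called at an adjusted p below 0.05 in limma, fitted over all 14813 tested genes on log2(FPKM + 1), on which the changes of low genes are understated. In KO-labelled cells 4 of 9 genes were called, 2 in each direction, where 37.6% of all tested genes were called (19.8% higher and 17.9% lower). In WT-labelled cells 4 of 9 were called, 1 higher and 3 lower, where 54.8% of all tested genes were called (30.8% higher and 24% lower). The balance of all genes turned round after median-of-ratios scaling, with 2618 called higher and 2894 lower in KO-labelled cells and 3856 higher and 4191 lower in WT-labelled cells, against 2926 and 2645, and 4564 and 3553, without it. The share of the 9 genes called was 44.4% in both lines, above that of all genes in one line and below it in the other, and no result is read from it. Groups did not overlap for 6 of the 9 genes in KO-labelled cells, where 67.5% of all tested genes did not overlap, and for 7 in WT-labelled cells, where 64.3% did not. The median log2 change of the 9 was -0.01 in KO-labelled and -0.08 in WT-labelled cells, against medians of 0.02 and 0.04 for all tested genes.

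EP300 (chromosome 22, 41488614 to 41576081 by the deposited tables, whose build is not given in the sources used here) encodes p300, a coactivator that acetylates histones as well as p53. It was at 25.9 and 26.0 FPKM in KO-labelled cells with SET siRNA, against 31.6 and 31.4 FPKM with control siRNA. EP300 in WT-labelled cells was at 24.1, 23.7 and 23.3 FPKM with SET siRNA, against 26.7, 26.3 and 27.1 FPKM with control siRNA. Every library with SET siRNA was thus lower than every control library of its line. The log2 change was -0.27 (SE 0.0428, adjusted p = 0.00128) in KO-labelled and -0.17 (SE 0.0349, adjusted p = 0.00312) in WT-labelled cells.

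CREBBP (chromosome 16, 3775055 to 3930121) encodes CBP, the close paralogue of p300. It was at 22.2 and 22.5 FPKM in KO-labelled cells with SET siRNA, against 20.4 and 18.8 FPKM with control siRNA. In WT-labelled cells it was at 20.05, 19.9 and 20.7 FPKM with SET siRNA, against 18.2, 18.0 and 18.0 FPKM with control siRNA. The groups did not overlap in either line, and the direction was opposite to that of EP300. The log2 change was 0.18 (SE 0.0509, adjusted p = 0.0207) in KO-labelled and 0.16 (SE 0.0416, adjusted p = 0.01045) in WT-labelled cells. The call in KO-labelled cells was lost without SET siRNA library 1 or 2 of that line (adjusted p = 0.0766 and 0.101), without its control library 2 (0.091) and when the other libraries were left out of the fit (0.155). That in WT-labelled cells was lost after median-of-ratios scaling (adjusted p = 0.0519).

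The ratio of EP300 to CREBBP within a library brings both shifts together. It was 1.16 ± 0.0082 (SD, n = 2) in KO-labelled cells with SET siRNA and 1.61 ± 0.0812 (n = 2) with control siRNA. In WT-labelled cells it was 1.17 ± 0.0431 (n = 3) with SET siRNA and 1.48 ± 0.0259 (n = 3) with control siRNA. The libraries with SET siRNA lay between 1.12 and 1.20 and the control libraries between 1.46 and 1.66. Since EP300 was lower and CREBBP higher in every SET siRNA library of each line, that separation follows from the values above, and the ratio only describes them. In bulk RNA a change of level per cell and a change in the share of cells that express a gene cannot be told apart.

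**Figure D2:**
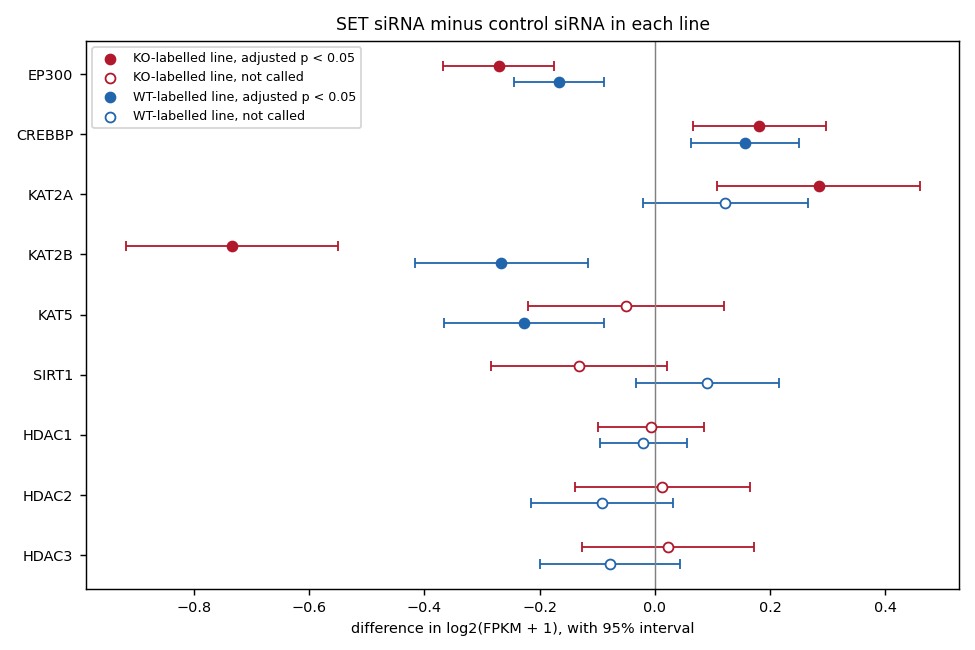
Change of each gene with SET siRNA relative to control siRNA (difference in log2(FPKM + 1), with its 95% interval) in the KO-labelled line (red, upper) and the WT-labelled line (blue, lower); filled points have an adjusted p below 0.05. KAT2B at -0.73 in KO-labelled cells is the change farthest from 0, and the intervals of SIRT1, HDAC1, HDAC2 and HDAC3 include 0 in both lines.

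KAT2A (chromosome 17, 40265129 to 40273382) encodes GCN5, the catalytic subunit of the SAGA and ATAC coactivator complexes. It was at 30.4 and 28.3 FPKM in KO-labelled cells with SET siRNA, against 26.1 and 21.9 FPKM with control siRNA. KAT2A in WT-labelled cells was at 30.7, 29.6 and 31.7 FPKM with SET siRNA, against 28.9, 27.4 and 28.1 FPKM with control siRNA. SET siRNA libraries were the higher in each line without overlap. The log2 change was 0.28 (SE 0.0778, adjusted p = 0.0187) in KO-labelled cells and 0.12 (95% interval -0.02 to 0.27, adjusted p = 0.13) in WT-labelled cells. The call in KO-labelled cells was lost without SET siRNA library 1 (adjusted p = 0.1205), without control library 2 (0.0917) and when the other libraries were left out of the fit (0.0864). In WT-labelled cells the change passed the threshold when the other libraries were left out of the fit (adjusted p = 0.0381), or when KO control library 1 or 2 was (0.038 and 0.0379).

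KAT2B (chromosome 3, 20081524 to 20195896) encodes PCAF, the paralogue of GCN5 and the alternative catalytic subunit of the same complexes. It was at 1.97 and 2.12 FPKM in KO-labelled cells with SET siRNA, against 3.80 and 4.35 FPKM with control siRNA, or 0.503 times the control mean. KAT2B in WT-labelled cells was at 3.57, 3.53 and 3.39 FPKM with SET siRNA, against 4.38, 4.73 and 4.14 FPKM with control siRNA, or 0.793 times the control mean. All libraries with SET siRNA were below all control libraries, and the KO-labelled pair with SET siRNA was below every other library. The log2 change was -0.73 (SE 0.0818, adjusted p = 0.0002025) in KO-labelled and -0.27 (SE 0.0668, adjusted p = 0.00795) in WT-labelled cells, and both calls held in all 18 alternatives that gave a value. A microRNA gene within KAT2B, MIR3135, was listed at 0 in every library.

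The response of KAT2B differed between the lines, and KAT2B was the 1 gene of the 9 for which the interaction was called, where 19.1% of all tested genes were (8.6% higher and 10.5% lower). The response in KO-labelled cells minus that in WT-labelled cells was -0.47 on the log2 scale (SE 0.106, adjusted p = 0.0170). The call was lost without KO SET siRNA library 1 (-0.43, adjusted p = 0.0745) or KO control library 2 (-0.39, adjusted p = 0.0571). Over the 17 alternatives that gave a value its adjusted p ran from 0.00962 to 0.0745. The ratio of KAT2B to KAT2A was 0.0699 ± 0.00715 (SD, n = 2) in KO-labelled cells with SET siRNA and 0.172 ± 0.0374 (n = 2) with control siRNA. In WT-labelled cells this ratio was 0.114 ± 0.0064 (n = 3) with SET siRNA and 0.157 ± 0.0136 (n = 3) with control siRNA.

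**Figure D3:**
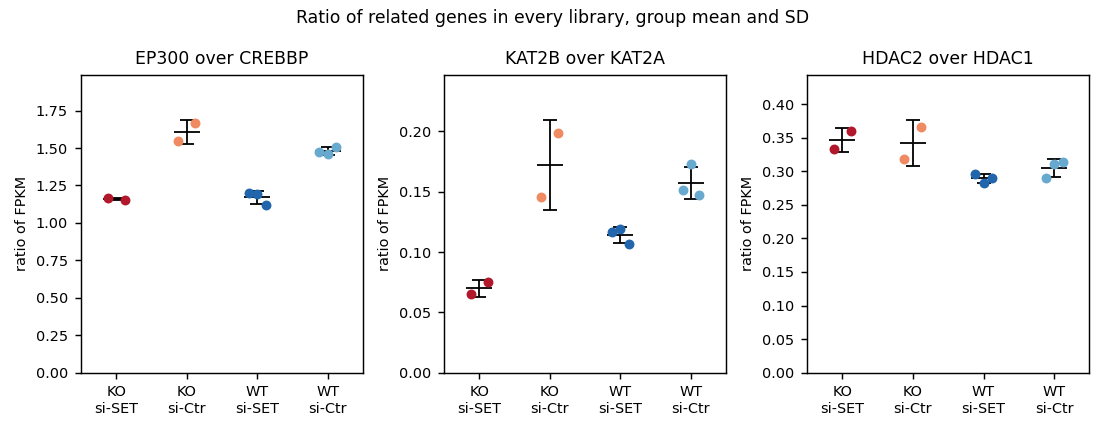
Ratio of FPKM between related genes in each library (points), with the group mean and SD (bars; n = 2 for KO-labelled and n = 3 for WT-labelled groups). EP300 over CREBBP is 1.12 to 1.20 in the libraries with SET siRNA and 1.46 to 1.66 in the control libraries, and KAT2B over KAT2A is lowest in KO-labelled cells with SET siRNA.

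KAT5 (chromosome 11, 65479473 to 65487077) encodes TIP60, the acetyltransferase of the NuA4 complex. In KO-labelled cells it was at 25.7 and 26.7 FPKM with SET siRNA, against 28.4 and 26.0 FPKM with control siRNA, and these groups overlapped. In WT-labelled cells it was at 23.2, 22.3 and 25.6 FPKM with SET siRNA, against 27.3, 29.4 and 26.8 FPKM with control siRNA, without overlap. The log2 change was -0.05 (95% interval -0.22 to 0.12, adjusted p = 0.629) in KO-labelled and -0.23 (SE 0.0616, adjusted p = 0.0117) in WT-labelled cells. The difference between the lines was 0.18 (adjusted p = 0.222), so the responses were not shown to differ. KAT5 shares 1934 bases with RNASEH2C, which was at 14.4 to 19.7 FPKM, and reads from the shared bases cannot be assigned without strand.

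Among the 4 deacetylase genes, SIRT1 was at 17.2 and 16.8 FPKM in KO-labelled cells with SET siRNA, against 17.4 and 20.1 FPKM with control siRNA. The WT-labelled line had SIRT1 at 12.8, 13.4 and 12.8 FPKM with SET siRNA, against 11.9, 12.5 and 12.03 FPKM with control siRNA. The libraries did not overlap in either line but lay in opposite directions, with log2 changes of -0.13 (adjusted p = 0.1545) in KO-labelled and 0.09 (adjusted p = 0.188) in WT-labelled cells. The difference was -0.22 (95% interval -0.42 to -0.03) with an adjusted p of 0.1005, and passed the threshold once KO control library 1 was left out (-0.32, adjusted p = 0.0132), as did the change in KO-labelled cells (-0.23, adjusted p = 0.0168). Without KO control library 2 the difference was -0.13 (adjusted p = 0.279) and the change in KO-labelled cells -0.03 (adjusted p = 0.686).

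HDAC1, the most abundant of the 9, had log2 changes of -0.01 (95% interval -0.10 to 0.09) in KO-labelled and -0.02 (-0.10 to 0.06) in WT-labelled cells with SET siRNA. For HDAC2, its partner in the SIN3, NuRD and CoREST complexes, these were 0.01 (-0.14 to 0.16) and -0.09 (-0.22 to 0.03). For HDAC3, the enzyme of the NCOR and SMRT corepressor complexes, they were 0.02 (-0.13 to 0.17) and -0.08 (-0.20 to 0.04), and the change in WT-labelled cells was called without WT control library 2 (-0.14, adjusted p = 0.038). These intervals leave room for changes of up to 0.22 in size.

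G2/M genes moved with SET siRNA in WT-labelled cells. The summed level of 20 such genes was 2319 to 2387 FPKM with SET siRNA and 2318 to 2485 FPKM with control siRNA in KO-labelled cells, and 1340 to 1378 FPKM with SET siRNA and 1914 to 1992 FPKM with control siRNA in WT-labelled cells. In WT-labelled cells 19 of the 20 were called lower and 0 higher, where 24% and 30.8% of all tested genes were. In KO-labelled cells 3 were called lower and 3 higher, where 17.9% and 19.8% of all tested genes were. The even sum in KO-labelled cells covers single genes that moved. CCNA2 was at a mean of 32.4 FPKM with SET siRNA there, against 69.9 FPKM with control siRNA (log2 change -1.085), while AURKB and UBE2C rose by 0.30 and 0.34. Their part in the changes of the 9 genes was not tested.

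The KO-labelled line was then compared with the WT-labelled line under each siRNA, to see whether these genes differ where p53 is labelled absent. SIRT1, HDAC1, HDAC2 and EP300 were higher in KO-labelled cells under both siRNAs. KAT2A was lower under control siRNA, while KAT2B was lower and CREBBP higher under SET siRNA. Under control siRNA 5 of 9 genes were called, 4 higher and 1 lower, where 47.9% of all tested genes were called (25.7% higher and 22.2% lower). Under SET siRNA 6 of 9 were called, 5 higher and 1 lower, where 48.4% of all tested genes were called (23.6% higher and 24.8% lower). Their median log2 differences were 0.11 and 0.14, against 0.02 and 0.00 for all tested genes. Under control siRNA 6 of the 9 had groups that did not overlap, where 63.1% of all tested genes did not overlap, and under SET siRNA 8 of the 9 had groups apart, where 70.2% of all tested genes did not overlap.

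SIRT1 (chromosome 10, 69644427 to 69678147) had the largest difference of the 9 under control siRNA. Its libraries stood at 17.4 and 20.1 FPKM in KO-labelled cells, against 11.9 to 12.5 FPKM in WT-labelled cells, 1.55 times the WT-labelled mean. Under SET siRNA they stood at 17.2 and 16.8 FPKM in KO-labelled cells, against 12.8 to 13.4 FPKM in WT-labelled cells, 1.31 times the mean. All 4 KO-labelled libraries were above all 6 WT-labelled ones. The log2 difference was 0.59 (SE 0.0616, adjusted p = 8.755e-05) under control siRNA and 0.36 (SE 0.0616, adjusted p = 0.001075) under SET siRNA.

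HDAC2 (chromosome 6, 114257320 to 114292359) was at 29.3 and 33.4 FPKM in KO-labelled cells with control siRNA, against 23.0, 24.9 and 24.8 FPKM in WT-labelled cells. With SET siRNA it was at 30.9 and 32.2 FPKM in KO-labelled cells, against 22.9, 22.65 and 22.5 FPKM in WT-labelled cells. The log2 difference was 0.36 (SE 0.0614, adjusted p = 0.00151) with control siRNA and 0.46 (SE 0.0614, adjusted p = 0.000257) with SET siRNA.

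HDAC1 (chromosome 1, 32757708 to 32799224) was at 91.9 and 91.2 FPKM in KO-labelled cells with control siRNA, against 79.3, 80.1 and 79.0 FPKM in WT-labelled cells. With SET siRNA it was at 92.7 and 89.6 FPKM in KO-labelled cells, against 77.5, 80.1 and 77.4 FPKM in WT-labelled cells. The log2 difference was 0.20 (SE 0.0375, adjusted p = 0.00218) with control siRNA and 0.22 (SE 0.0375, adjusted p = 0.00125) with SET siRNA. The KO-labelled libraries were above the WT-labelled ones for both genes under both siRNAs, and all 19 alternatives kept the calls of SIRT1, HDAC1 and HDAC2 in both comparisons. HDAC2 over HDAC1 was 0.347 ± 0.0183 and 0.342 ± 0.034 in KO-labelled cells with SET and control siRNA (SD, n = 2 each). In WT-labelled cells it was 0.2895 ± 0.00656 and 0.305 ± 0.0129 (SD, n = 3 each).

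**Figure D4:**
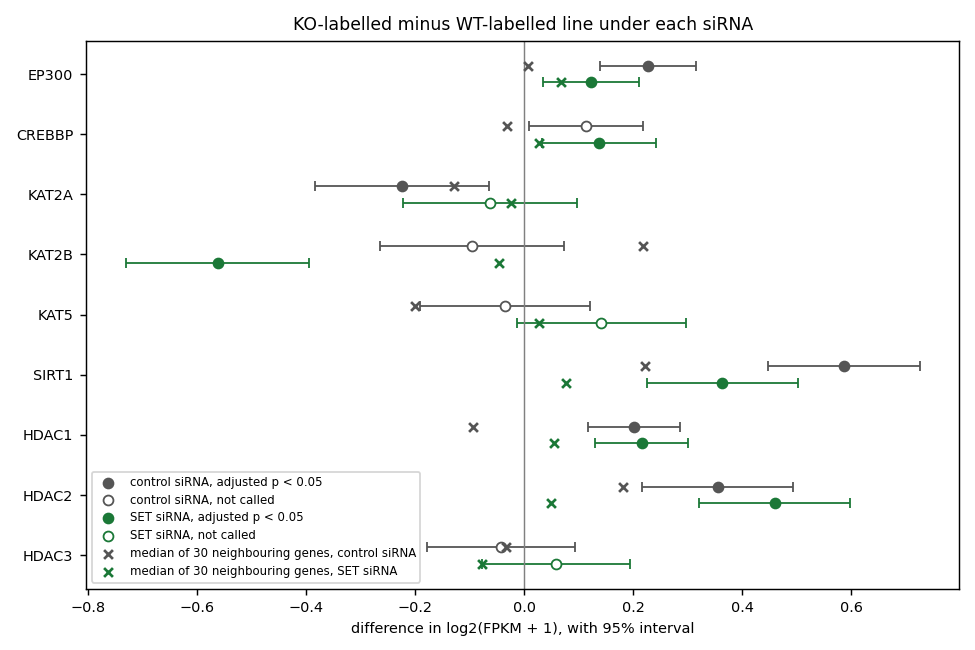
Difference of each gene between the KO-labelled and WT-labelled lines (difference in log2(FPKM + 1), with its 95% interval) under control siRNA (grey, upper) and SET siRNA (green, lower); filled points have an adjusted p below 0.05, and crosses mark the median difference of the 30 nearest expressed genes. SIRT1, HDAC1, HDAC2 and EP300 lie above 0 under both siRNAs, SIRT1 at 0.59 and 0.36, and each lies to the right of its neighbours' median.

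The promoters of these 3 deacetylase genes, which were higher together in KO-labelled cells, and of KAT2B, which fell with SET siRNA in both lines, are shown as examples. EP300 had both patterns, and its window is described below without being printed. The windows are RefSeq sequences of build GRCh38.p14, 250 bases before to 50 after the gene start, printed 5′ to 3′ on the strand of the gene, and 8 of the 9 genes had an entry (CREBBP had none). Capitals mark exact matches on either strand to any motif searched. The motifs were the GC box (GGGCGG), the CCAAT box (CCAAT), an ETS core (CCGGAAG), an E2F core (TTTCCCGC), the cAMP response element (TGACGTCA), the NRF1 site, the C/EBP-ATF element (TGATGNAA) and the p53 half-site consensus. The windows lie at chr10:67884406-67884705 on the plus strand for SIRT1, chr6:113971099-113971398 on the minus strand for HDAC2, chr1:32291833-32292132 on the plus strand for HDAC1 and chr3:20040196-20040495 on the plus strand for KAT2B.
SIRT1: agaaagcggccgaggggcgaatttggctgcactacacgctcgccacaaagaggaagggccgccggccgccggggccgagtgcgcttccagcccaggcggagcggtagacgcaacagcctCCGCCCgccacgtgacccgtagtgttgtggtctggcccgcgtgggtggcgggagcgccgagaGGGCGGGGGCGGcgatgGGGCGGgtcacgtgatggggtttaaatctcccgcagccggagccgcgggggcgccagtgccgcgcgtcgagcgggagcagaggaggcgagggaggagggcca
HDAC2: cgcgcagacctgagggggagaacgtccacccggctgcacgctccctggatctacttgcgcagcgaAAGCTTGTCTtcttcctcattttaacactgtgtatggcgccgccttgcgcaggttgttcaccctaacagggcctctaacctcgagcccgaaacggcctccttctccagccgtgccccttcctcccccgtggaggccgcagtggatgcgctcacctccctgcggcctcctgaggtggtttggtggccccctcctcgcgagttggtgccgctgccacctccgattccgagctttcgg
HDAC1: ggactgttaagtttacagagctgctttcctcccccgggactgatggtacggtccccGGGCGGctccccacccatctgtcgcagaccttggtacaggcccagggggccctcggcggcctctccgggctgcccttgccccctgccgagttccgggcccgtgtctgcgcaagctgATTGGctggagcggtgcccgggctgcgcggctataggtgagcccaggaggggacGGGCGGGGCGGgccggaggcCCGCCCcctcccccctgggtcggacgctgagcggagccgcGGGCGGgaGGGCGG
KAT2B: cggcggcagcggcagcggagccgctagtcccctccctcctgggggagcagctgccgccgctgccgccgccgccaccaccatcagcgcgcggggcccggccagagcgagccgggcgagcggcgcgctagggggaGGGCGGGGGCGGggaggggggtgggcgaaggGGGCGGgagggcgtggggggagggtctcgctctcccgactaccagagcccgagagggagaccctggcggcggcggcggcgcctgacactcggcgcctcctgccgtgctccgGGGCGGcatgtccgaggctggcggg

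The capitals in the SIRT1 and KAT2B windows are 4 GC boxes each, and those in HDAC1 are 6 GC boxes, of which 2 overlap, and 1 CCAAT box. GC boxes were present in 45% and CCAAT boxes in 34.6% of the 35116 RefSeq promoter windows of this length. The window of HDAC2 held no GC box, and its capitals are 1 match to the p53 half-site, starting at position -185 from the gene start. Such a half-site was present in 6.63% of all windows, and a full site has a pair of them. The other motifs matched none of these 4 windows, and were present in 1.63 to 10.3% of all windows. The 4 windows were 64 to 80.3% G and C, against a median of 58.7% over all windows. A match of letters is not a binding site, and no factor binding was measured.

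Among the acetyltransferases, EP300 was higher in KO-labelled than in WT-labelled cells by 0.23 (SE 0.0391, adjusted p = 0.001445) on the log2 scale with control siRNA and 0.12 (SE 0.0391, adjusted p = 0.0271) with SET siRNA. The second call was lost without KO SET siRNA library 1 or 2 (adjusted p = 0.109 and 0.125) or WT SET siRNA library 2 or 3 (0.066 and 0.078). CREBBP differed by 0.11 (adjusted p = 0.0712) with control siRNA and 0.14 (SE 0.0465, adjusted p = 0.0347) with SET siRNA. The call of CREBBP under SET siRNA was lost without KO SET siRNA library 1 or 2 (adjusted p = 0.109 and 0.159), WT SET siRNA library 1 or 2 (0.0907 and 0.0959) or WT control library 2 (0.0537). Its difference with control siRNA passed the threshold once KO control library 2 was left out (0.17, adjusted p = 0.0277), and was 0.06 (adjusted p = 0.323) without KO control library 1.

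KAT2A differed by -0.22 (SE 0.071, adjusted p = 0.0275) with control siRNA and by -0.06 (95% interval -0.22 to 0.10) with SET siRNA. The first call was lost without KO control library 2 (-0.10, adjusted p = 0.227; -0.34 without library 1) or WT control library 1 or 3 (0.0765 and 0.0551), with array weights (0.0623) and when the other libraries were left out of the fit (0.0759). KAT2B differed by -0.09 (95% interval -0.26 to 0.07) with control siRNA and by -0.56 (SE 0.0747, adjusted p = 0.000249) with SET siRNA, at 0.585 times the WT-labelled mean. KAT5 had differences of -0.03 (-0.19 to 0.12) and 0.14 (-0.01 to 0.30), the second called with array weights (0.15, adjusted p = 0.0467) and without WT SET siRNA library 3 (0.20, adjusted p = 0.0404). HDAC3 (chromosome 5, 141000443 to 141016423) was at 40.4 and 41.5 FPKM in KO-labelled cells with control siRNA, against 42.7, 38.8 and 45.2 FPKM in WT-labelled cells. With SET siRNA HDAC3 was at 41.5 and 41.7 FPKM in KO-labelled cells, against 39.0, 40.0 and 40.8 FPKM in WT-labelled cells. Its log2 differences of -0.04 (-0.18 to 0.09) and 0.06 (-0.08 to 0.19) were not called.

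Because the lines were selected as clones, the genes around each member were measured too. With control siRNA the median log2 difference of the 30 nearest expressed genes (mean FPKM of at least 5) was 0.22 around SIRT1, 0.18 around HDAC2, -0.09 around HDAC1 and 0.01 around EP300. With SET siRNA these medians were 0.08, 0.05, 0.06 and 0.07. The middle 90% of 9779 such windows ran from -0.25 to 0.28 with control siRNA and from -0.27 to 0.24 with SET siRNA, and no member's neighbours lay outside it. G2/M genes were called higher in KO-labelled cells in 17 of 20 cases with control siRNA and in all 20 with SET siRNA. Of all tested genes 25.7% and 23.6% were called higher. The part of the G2/M genes in the differences of the 9 genes was not tested.

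Other genes of acetylation were counted from lists of the remaining acetyltransferases, the remaining deacetylases, subunits of the complexes of both, and regulators and cofactor supply. Of all tested genes, 19.8% were called higher and 17.9% lower with SET siRNA in KO-labelled cells, and 30.8% and 24% in WT-labelled cells. Between the lines these shares were 25.7% and 22.2% with control siRNA, and 23.6% and 24.8% with SET siRNA. No result is read from the counts of the lists. Among 13 other deacetylases tested, 4 rose and 0 fell with SET siRNA in KO-labelled cells, and 3 rose and 1 fell in WT-labelled cells. The share called was 30.8% in each line, where 37.6% and 54.8% of all tested genes were called. HDAC9, a class IIa deacetylase, led the rises in both lines. It was at 15.5 ± 0.0962 FPKM with SET siRNA and 8.07 ± 0.00897 FPKM with control siRNA in KO-labelled cells (SD, n = 2 each), a log2 change of 0.86. In WT-labelled cells HDAC9 was at 28.1 ± 0.618 FPKM with SET siRNA and 13.9 ± 0.663 FPKM with control siRNA (SD, n = 3 each), a log2 change of 0.97. HDAC10 rose by 0.52 in KO-labelled cells, and SIRT2, a cytoplasmic sirtuin, by 0.35 in WT-labelled cells. In KO-labelled against WT-labelled cells with control siRNA 1 of these 13 was higher and 5 were lower. That was 46.2% called, where 47.9% of all tested genes were. HDAC9 was at -0.71 and the nucleolar sirtuin SIRT7 at -0.64.

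Among 17 other acetyltransferases 1 rose and 4 fell with SET siRNA in KO-labelled cells, and 5 rose and 4 fell in WT-labelled cells. These were 29.4% and 52.9% called, where 37.6% and 54.8% of all tested genes were. CSRP2BP (KAT14), of the ATAC complex, changed by -0.59 and -0.39 in the KO-labelled and WT-labelled lines. NCOA1, a nuclear receptor coactivator, fell by 0.38 in KO-labelled cells. In WT-labelled cells NCOA3 rose by 0.32 and ESCO2, which acetylates cohesin, fell by 0.49. In KO-labelled against WT-labelled cells with control siRNA 10 were higher and 1 was lower, with KAT6B at 0.80 and CSRP2BP at 0.41. That was 64.7% called, where 47.9% of all tested genes were (25.7% higher and 22.2% lower).

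Of 38 tested subunits of acetyltransferase complexes 7 rose and 3 fell with SET siRNA in KO-labelled cells. In WT-labelled cells 9 rose and 9 fell. These were 26.3% and 47.4% called, where 37.6% and 54.8% of all tested genes were. CITED2, which binds p300 and CBP, rose by 0.72 in WT-labelled cells and the SAGA subunit SUPT7L by 0.42, while CITED1 and the adaptor TADA2A changed by -0.48 and -0.28. Between the lines with control siRNA 18 were higher and 1 was lower in KO-labelled cells. That was 50% called, where 47.9% of all tested genes were. The SAGA deubiquitinase USP22 was at 0.61, CITED2 at 0.45 and the scaffold TRRAP at -0.33. Of 37 subunits of deacetylase complexes 6 rose and 9 fell in KO-labelled cells, with the NuRD subunit GATAD2A at 0.58, and TBL1XR1 of the NCOR complex and the methyl-CpG binder MBD2 at -0.58 and -0.47. In WT-labelled cells 8 rose and 15 fell, with the SIN3 complex genes SIN3B and ARID4A at 0.36 and 0.36, and SAP30 and ING2 at -0.63 and -0.56. Between the lines with control siRNA 18 were higher and 6 lower in KO-labelled cells. The NuRD helicase CHD3 was at 1.19, the corepressor NCOR1 at 0.93 and the helicase CHD4 at -0.53. For these 37 genes 40.5%, 62.2% and 64.9% were called in the 3 comparisons, where 37.6%, 54.8% and 47.9% of all tested genes were.

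Among 22 regulators and cofactor genes 2 rose and 4 fell with SET siRNA in KO-labelled cells. In WT-labelled cells 8 rose and 10 fell. These were 27.3% and 81.8% called, where 37.6% and 54.8% of all tested genes were. RPS19BP1, which binds SIRT1 and promotes its activity, rose by 0.55 in KO-labelled cells. TP53INP1, a p53 target, changed by -0.81 in KO-labelled and 1.06 in WT-labelled cells, and MDM2, the ubiquitin ligase of p53, by 2.29 in WT-labelled cells. PHF20, a reader of methylated p53, fell by 0.53 in WT-labelled cells. Between the lines with control siRNA 7 were higher and 8 lower in KO-labelled cells. That was 68.2% called, where 47.9% of all tested genes were. The p300 cofactor JMY was at 0.50, MDM2 at -1.45 and TP53INP1 at -1.10. In KO-labelled against WT-labelled cells with SET siRNA 7 of the other acetyltransferases were higher and 1 lower, and 1 and 5 of the other deacetylases. For the acetyltransferase complex subunits these counts were 11 and 2, for the deacetylase complex subunits 22 and 3, and for the regulators 9 and 8. In this order 47.1%, 46.2%, 34.2%, 67.6% and 77.3% were called, where 48.4% of all tested genes were. The median log2 difference between the lines of the 30 expressed genes nearest to each, with control siRNA, was 0.75 around CHD3, 0.76 around NCOR1, -0.54 around CHD4, -0.51 around SIRT7 and -0.41 around TRRAP, all outside the middle 90% of windows, and 0.12 around USP22, 0.12 around KAT6B and 0.07 around HDAC9, inside it. With SET siRNA the median around USP22 was 0.40, outside the middle 90%. The list genes given here with values kept their calls when any 1 library was left out. KAT6A, ESCO1, NAA10, HDAC7, HDAC8, RUVBL1, EP400, TAF12, MORF4L1 and DNTTIP1, also selected by size, lost theirs in at least 1 such fit and are not described.

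**Figure D5:**
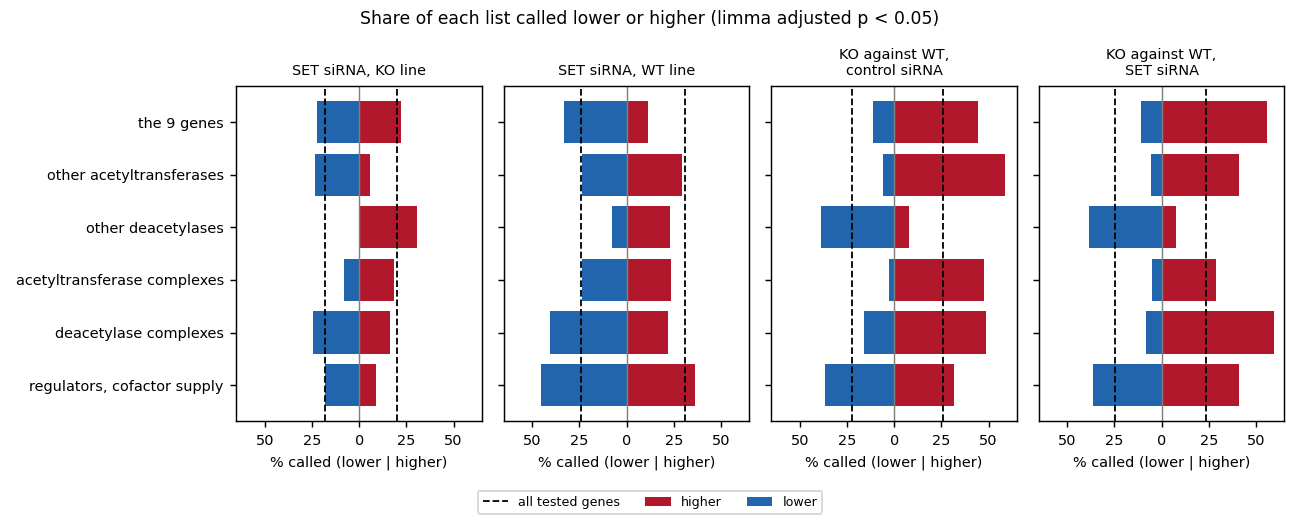
Share of the tested genes of each list that limma called higher (red, to the right) or lower (blue, to the left) at an adjusted p below 0.05 in 4 comparisons; dashed lines mark the same shares over all 14813 tested genes. Of the 9 genes, 5 were higher and 1 lower in KO-labelled cells with SET siRNA, where 23.6% and 24.8% of all genes were.

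The genes whose pattern was most like that of the members with the strongest difference over the 4 groups were found by Pearson correlation of log2(FPKM + 1) over the 10 libraries. For KAT2B they were ITGAV (r = 0.992), LEPROT (0.990) and ITPRIPL2 (0.9855), out of 10476 genes with a mean FPKM of at least 5. For SIRT1 they were XPOT (0.996), KIAA0528 (0.991) and FAM45A (0.991). For EP300 they were GHITM (0.990), CRISPLD1 (0.9885) and JAKMIP2 (0.9875). The points share the 4 groups, so these values describe likeness of group levels within this set.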

How the data were processed

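FPKM per gene was computed by the authors with Cufflinks 2.0.2 after TopHat2 2.0.4 and bcl2fastq 1.8.4, per the submitters' processing notes, and each deposited table adds, per the file headers, the interval and the status of the estimate. RNA came from Trizol extraction and TruSeq libraries, per the labels' protocols. The build is not given in the sources used here, nor is the annotation. File coordinates are printed with the start raised by 1, to count from 1. Each file held 25593 entries. The intervals gave whole fragments (within 0.05) for 57.1 to 59.1% of low values, so fragments were not recovered and no count test was run.

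The 14813 genes that reached an FPKM of 1 in 2 or more libraries were fitted on log2(FPKM + 1) with limma 3.58.1 in R 4.3.3 (lmFit, contrasts.fit, eBayes with trend), all 10 libraries in 4 groups sharing 1 estimate of the spread. For each line SET siRNA was compared with control siRNA, followed by KO against WT under each siRNA and the difference of the siRNA responses (KO minus WT). P-values were adjusted by Benjamini-Hochberg over all tested genes, and the threshold was 0.05. The procedure was tested on simulated data. Python 3.11.15, numpy 2.4.6, pandas 2.3.3 and matplotlib 3.10.9 did the rest.

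The 9 genes and all lists were chosen with earlier results of these data known. Named genes were the 9, SET, CDKN1A and MDM2, genes overlapping a member, the 2 called genes of each list with the largest rise and the 2 with the largest fall in each siRNA comparison, in KO against WT with control siRNA and in the interaction, and for the 3 members with the highest moderated F the 3 most correlated genes. Some results that this rule selects are left out of the text. The neighbouring genes and the pair ratios were added after the members' values were seen. The fits were repeated with a pseudocount of 0.1, without the filter, with a mean FPKM of at least 5, after quantile normalization or median-of-ratios scaling, with array weights, with the replicate number as a block, without the trend, on the compared groups alone, and without each library in turn.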

Additional observations from a re-analysis of the deposited data

Results flagged for a closer look

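The difference of the SET siRNA response between the lines (KO-labelled response minus WT-labelled response on the log2 scale, called in limma) put these genes forward. KAT2B, at -0.47, was the member among them, and its call was lost without KO SET siRNA library 1 or KO control library 2, as given above.

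Of the p53 readouts, CDKN1A differed by -0.74, MDM2 by -2.10 and TP53INP1 by -1.87. NCOA1 at -0.35, WDR5, a subunit shared by several chromatin complexes, at 0.38, and CITED2 at -0.52 kept their calls whichever library was left out. The G2/M genes CDC20 and PLK1 differed by 1.04 and 1.01. The remaining genes were NCOA3 at -0.31, HDAC10 at 0.53, RUVBL1 at 0.24, EPC2 at -0.35, MBD3 at 0.54, GATAD2A at 0.50, BRMS1L at -0.51, ARID4A at -0.51, ING5 at 0.38 and RPS19BP1 at 0.37. Each of these 10 lost its call in 3 to 9 of the 10 fits that left out 1 library. No group has enough libraries for a test of single outlying values.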

How the results depend on the processing

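Of 841 alternative values of the 9 genes over the 5 comparisons, 795 kept their direction and side of the threshold, 24 lost a call, 10 gained one and 12 changed sign; the cause was not tested. All 12 were of values not called. With SET siRNA in KO-labelled cells HDAC2 was at -0.008702 after median-of-ratios scaling, and with any 1 library left out KAT5 ran from -0.1136 to 0.01229, HDAC1 from -0.03117 to 0.01788 and HDAC2 from -0.07947 to 0.1057. In WT-labelled cells HDAC1 was at 0.005378 after quantile normalization. Between the lines with control siRNA KAT5 ran from -0.0977 to 0.02817 and HDAC3 from -0.1009 to 0.007375 with any 1 library left out. In the interaction HDAC1 was at -0.02001 after quantile normalization, and with any 1 library left out it ran from -0.0108 to 0.03824 and CREBBP from -0.02956 to 0.07875.

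With SET siRNA in KO-labelled cells 2 of the 9 genes were called with the other libraries left out of the fit, and 2 to 5 with any 1 library left out, the lowest without KO SET siRNA library 1 or KO control library 2 and the highest without KO control library 1. Calls over all genes numbered 3631 on the compared groups alone (14091 tested) and 3442 to 5816 with any 1 library left out, the lowest without KO SET siRNA library 1. In the interaction 0 of the 9 were called at a mean FPKM of at least 5, where KAT2B was not tested, and 0 to 3 with any 1 library left out, the highest without KO control library 1. Interaction calls over all genes were 1136 without KO SET siRNA library 1 to 4587 without KO control library 1. After median-of-ratios scaling the balance of all genes called higher and lower also turned round for KO against WT with SET siRNA (3703 and 3431, against 3501 and 3672) and the interaction (1505 and 1339, against 1274 and 1557). KAT2B gave no value under the stricter filter, and the interaction needs all 4 groups.

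The replicate numbers of the labels were not taken to pair the libraries, since not every same-numbered pair deviated together from its group means. The correlations of these deviations were 0.230 and 0.253 between KO-labelled and WT-labelled libraries with control siRNA, 0.040 and 0.056 with SET siRNA, and -0.091, -0.050 and 0.078 between SET and control siRNA in WT-labelled cells. With a replicate block 4, 4, 5, 6 and 1 of the 9 genes were called for SET siRNA in KO-labelled and WT-labelled cells, KO against WT with control and with SET siRNA, and the interaction, as without it. Calls over all genes were then 6027, 8472, 7189, 7233 and 3400, against 5571, 8117, 7101, 7173 and 2831 without the block. Depth is known only relative to other libraries, and 2 libraries a group in the KO-labelled line limit the precision of every comparison that uses it.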

Other observations

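Among the partners of HDAC1 and HDAC2 in the NuRD complex, the helicases CHD3 and CHD4 differed between the lines in opposite directions. CHD3 was at 87.4 ± 1.34 and 100.9 ± 5.72 FPKM in KO-labelled cells with SET and control siRNA (SD, n = 2 each), against 35.8 ± 0.969 and 43.5 ± 0.636 FPKM in WT-labelled cells (SD, n = 3 each). CHD4 was at 108.4 ± 0.825 and 119 ± 2.11 FPKM in KO-labelled cells, against 137.9 ± 1.35 and 172.8 ± 1.21 FPKM in WT-labelled cells. NCOR1, which carries HDAC3, was at 36.5 ± 0.923 and 35.6 ± 1.14 FPKM in KO-labelled cells, against 20.7 ± 0.577 and 18.2 ± 0.849 FPKM in WT-labelled cells. CHD3 and NCOR1 both lie on chromosome 17, and the neighbours of CHD3, NCOR1 and CHD4 were shifted the same way as the gene, as given above. CHD3, CHD4 and NCOR1 were taken up here after their values were seen.

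CREBBP was not among the 3 members with the highest moderated F, and its most similar genes were looked up after its values were seen. Over the 10 libraries they were SLC1A5 (r = 0.988), PHGDH (0.9845) and SLC6A9 (0.984). SLC1A5 and SLC6A9 encode amino acid transporters and PHGDH the first enzyme of serine synthesis. HDAC2 and HDAC1 had a higher moderated F than CREBBP, and their most similar genes were RFC1 (r = 0.994) and UCHL5 (0.981). As above, the points share the 4 groups, so these values describe likeness of group levels, and no shared function was tested.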
